A study of Mus musculus with 15 samples.

Results

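Connexins form gap junctions and pannexins form large membrane channels, and 9 genes of these families were followed in the cells of the mouse cortex: Gja1, Gjb6, Gjb2, Gjc3, Gja4, Gjc1, Gjd2, Panx1 and Panx2. They were picked by symbol from a given list of names, and all 9 stood among the 20610 genes of the deposited expression table. The 15 RNA libraries came from male mice, wild type and 28 days after birth, with no treatment named in the labels. Neurons, astrocytes and microglia had been separated from cortex with magnetic beads, and each cell type gave 5 libraries. Levels are TPM, a unit scaled to library total and to transcript length, so that genes can be set beside each other. The labels tie no library to an animal and do not say whether animals were pooled, so p-values measure the spread between libraries, which may be technical.

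A gap junction channel is made when a hexamer of connexins in the membrane of a cell docks with another in its neighbour, and ions and small metabolites then pass directly between the cells. In the cortex, connexins Cx43 (Gja1), Cx30 (Gjb6) and Cx26 (Gjb2) are known to couple astrocytes, Cx37 (Gja4) and Cx45 (Gjc1) belong to blood vessel walls, Cx29 (Gjc3) to oligodendrocytes, and Cx36 (Gjd2) to electrical synapses between inhibitory neurons. Pannexins rarely dock, and open instead to the outside of the cell, where Panx1 channels are known to release ATP.

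The marker genes of each labelled cell type were highest in the libraries of that type, and other cell types were represented as well. The 12 astrocyte markers summed to 20481 TPM or more in every astrocyte library, the 10 microglia markers to 62092 or more in every microglia library, and the 10 pan-neuronal markers to 872 or more in every neuron library, each above all libraries of the other types. Neuron libraries also held 27350 to 39865 TPM of 10 endothelial markers, and microglia libraries 252 to 69786 TPM of 10 mature oligodendrocyte markers. In every neuron library the endothelial sum lay far above the pan-neuronal sum, which was at most 1728 TPM. Smooth muscle (2424 to 6024 TPM) and pericyte (2011 to 3209 TPM) sums also lay above it. In microglia library 1 the oligodendrocyte sum (69786 TPM) lay above the microglia sum (65947 TPM). No marker list had a gene at 0 in all libraries of a cell type. In bulk libraries of this kind, more cells of a type and more RNA per cell cannot be told apart. Where levels are given below, neurons, astrocytes and microglia stand for the libraries with those labels.

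The members differed in where they were highest. Gja1, Gjb6 and Gjb2 were called higher in astrocytes than in both other cell types, Gja4 and Gjc1 were called higher in neuron libraries than in both others, and no member was called highest in microglia. A call required a Benjamini-Hochberg adjusted p below 0.05 in limma and a difference of at least 2-fold on the log2(TPM + 1) scale, where the added 1 shrinks differences of low genes. Among all 13351 tested genes, each reaching 1 TPM in 5 or more libraries, 10.2% were called highest in astrocytes, 9.58% in neurons and 7.42% in microglia. Of the 9 members 8 passed that filter, and Gjd2 did not.

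Between neurons and astrocytes 6 of the 8 tested members were called, 3 higher in each, where 25.6% of all tested genes were called. Between neurons and microglia 6 were called, all higher in neurons, against 39.3% of all tested genes (29.5% higher in neurons and 9.74% higher in microglia). Between astrocytes and microglia 6 were called higher in astrocytes and 1, Gjc3, higher in microglia, against 42.5% of all tested genes (32.3% and 10.2%). The median log2 difference of the 8 members was 0.64, 1.59 and 2.80 in these comparisons, beside -0.03, 0.48 and 0.57 over all tested genes. Each cell type enters 2 of the comparisons, so they share libraries.

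**Figure D1:**
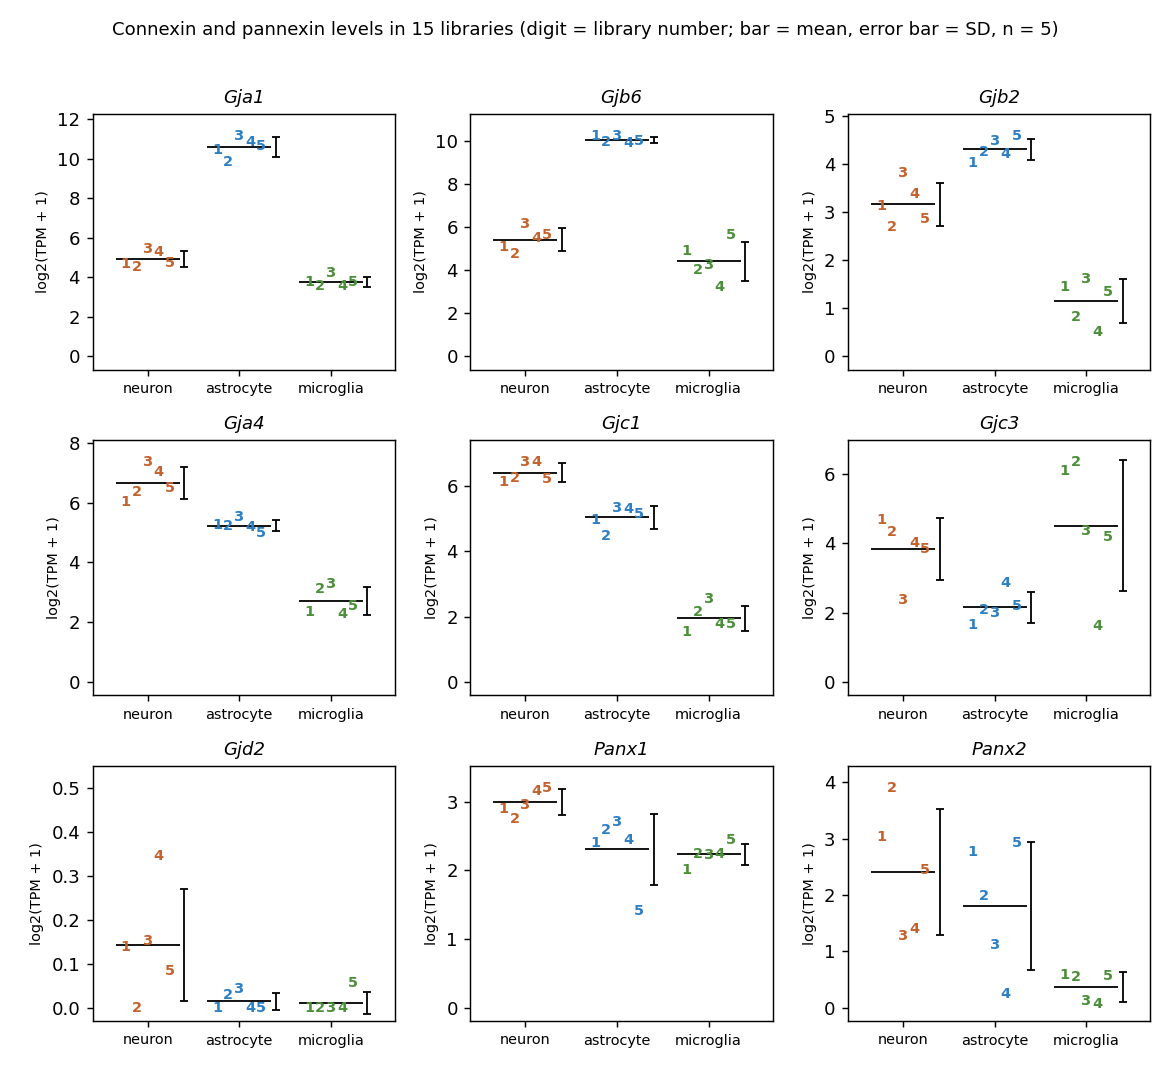
Level of each of the 9 genes on the log2(TPM + 1) scale in the neuron, astrocyte and microglia libraries, with each digit a library number, each bar a mean and each error bar the SD (n = 5). Each panel has its own vertical scale. Gja1 and Gjb6 stand at about 10 in astrocytes, Gja4 and Gjc1 are highest in neuron libraries, and Gjc3 and Panx2 spread widely within a cell type.

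**Figure D2:**
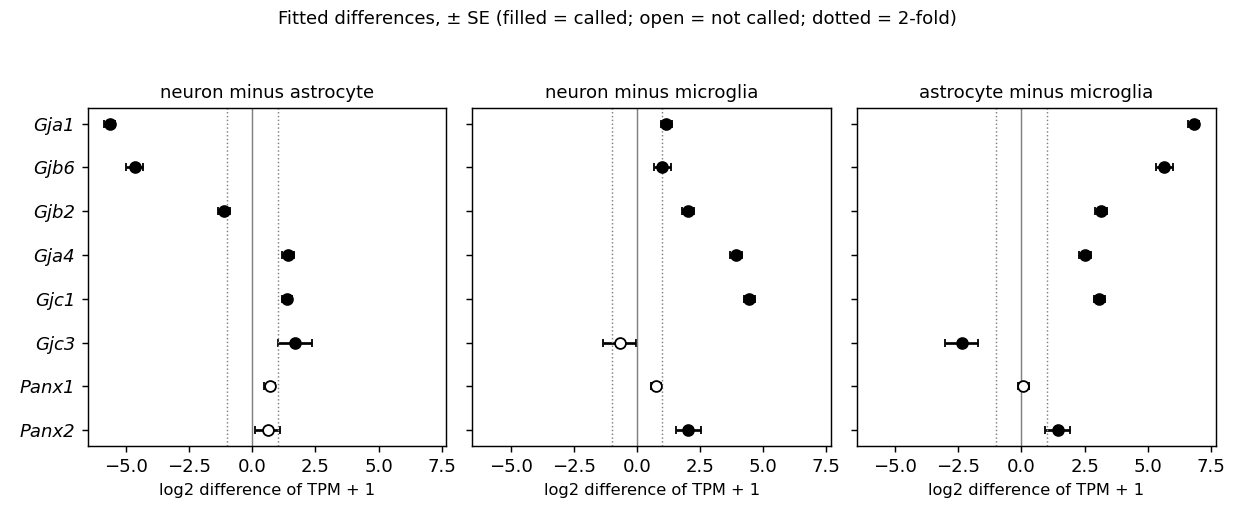
Fitted log2 difference of TPM + 1 with its SE for the 8 tested genes in the 3 comparisons of cell types. Filled points are called, open points are not, and dotted lines mark a 2-fold difference in either direction; Gja1 and Gjb6 lie farthest from 0 in both comparisons with astrocytes.

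Gja1 (chr10:56377330-56402513, plus strand, mm10), which encodes Cx43, the main gap junction protein of astrocytes, was the most abundant member there by its mean. In astrocyte libraries 1 to 5 its level was 1392, 908, 2229, 1854 and 1601 TPM. Neuron libraries had 24.8, 21.9, 42.8, 37.3 and 25.7 TPM, and microglia libraries 12.5, 11.0, 17.5, 10.7 and 12.3 TPM. All astrocyte libraries lay far above all others, and all neuron libraries lay above all microglia libraries. The astrocyte mean was 1597 ± 496 TPM (SD, n = 5), beside 30.5 ± 9.02 for neurons and 12.8 ± 2.75 for microglia. The log2 difference of neurons minus astrocytes was -5.65 ± 0.22 (SE, limma adjusted p = 8.69e-13), a 50.1-fold higher level in astrocytes, and that of astrocytes minus microglia was 6.82 (adjusted p = 2.46e-14). The smaller difference of neurons minus microglia was 1.17 (adjusted p = 0.000169) and fell below 2-fold under median-of-ratios scaling (0.59) and quantile normalization (0.82).

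Gjb6 (chr14:57123303-57133611, minus strand), which encodes Cx30, a connexin that appears in astrocytes as they mature, was the only other member with a mean above 1000 TPM there. Astrocyte libraries 1 to 5 had 1191, 1011, 1195, 977 and 1030 TPM. Neuron libraries had 32.4, 26.0, 70.9, 44.1 and 48.5 TPM, and microglia libraries 29.2, 15.4, 18.2, 8.40 and 49.1 TPM. Astrocytes lay apart from the rest, while neurons and microglia overlapped, with microglia library 5 at the level of the upper neuron libraries. The level was even among astrocyte libraries, with a coefficient of variation of 9.64% beside 31.0% for Gja1. Means were 1081 ± 104 TPM for astrocytes, 44.4 ± 17.3 for neurons and 24.1 ± 15.9 for microglia. The log2 difference was -4.65 ± 0.34 for neurons minus astrocytes (adjusted p = 2.58e-09) and 5.66 for astrocytes minus microglia (adjusted p = 5.73e-11). For neurons minus microglia it was 1.003 (adjusted p = 0.0133). That call was lost when any of neuron libraries 3, 4 and 5 or microglia libraries 2, 3 and 4 was left out (lowest difference 0.71, without microglia library 4).

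Gjb2 (chr14:57098600-57104702, minus strand) encodes Cx26 and lies 18600 bases from Gjb6, with the gene Gm4491 between them. It stood far below its neighbour in astrocytes, where libraries 1 to 5 had 15.3, 18.0, 21.3, 17.4 and 22.8 TPM. Neuron libraries had 7.68, 5.43, 13.1, 9.35 and 6.20 TPM, and microglia libraries 1.72, 0.77, 2.06, 0.43 and 1.54 TPM. None of the cell types overlapped. Means were 18.9 ± 3.07, 8.35 ± 3.04 and 1.30 ± 0.680 TPM in astrocytes, neurons and microglia. Neurons differed from astrocytes by a log2 of -1.14 ± 0.24 (adjusted p = 0.000559) and from microglia by 2.02 (adjusted p = 6e-07), and astrocytes from microglia by 3.16 (adjusted p = 1.43e-09).

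The proportion of these connexins to each other differed between the isolates. In astrocytes Gjb2 had 1.28% to 2.22% of the TPM of Gjb6, in microglia 3.14% to 11.3%, and in neuron libraries 12.8% to 23.7%. None of these ranges overlapped. Gjb6 per Gja1 was 0.527 to 1.11 for astrocytes, 1.18 to 1.89 for neurons and 0.787 to 3.98 for microglia, so that Gjb6 exceeded Gja1 in all neuron libraries and in astrocyte library 2 alone among astrocytes.

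The RefSeq sequence of the 250 bases before the start of each of these 3 genes is shown, as all were called highest in astrocytes. Gjb6 and Gjb2 also share a chromosomal neighbourhood. Letters are on the gene's own strand, 5′ to 3′, from build GRCm38.p6, and capitals mark CpG pairs. The windows lie at chr10:56377050-56377299 (plus strand), chr14:57133612-57133861 (minus strand) and chr14:57104703-57104952 (minus strand).
Gja1: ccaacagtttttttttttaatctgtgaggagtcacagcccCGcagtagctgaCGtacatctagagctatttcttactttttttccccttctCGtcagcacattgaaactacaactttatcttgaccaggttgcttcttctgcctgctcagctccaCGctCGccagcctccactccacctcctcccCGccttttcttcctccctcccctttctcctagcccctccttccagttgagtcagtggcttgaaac
Gjb6: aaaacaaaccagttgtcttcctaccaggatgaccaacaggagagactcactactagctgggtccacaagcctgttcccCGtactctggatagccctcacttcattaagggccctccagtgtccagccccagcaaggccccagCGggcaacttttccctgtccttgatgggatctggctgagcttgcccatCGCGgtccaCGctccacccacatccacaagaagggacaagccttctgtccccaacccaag
Gjb2: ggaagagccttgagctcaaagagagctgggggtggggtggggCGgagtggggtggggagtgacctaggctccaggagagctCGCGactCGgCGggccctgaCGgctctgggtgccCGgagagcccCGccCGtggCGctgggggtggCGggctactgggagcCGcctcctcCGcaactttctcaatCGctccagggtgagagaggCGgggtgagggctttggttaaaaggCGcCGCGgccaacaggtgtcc
The Gjb2 window held 18 CpG pairs at 69.2% G and C, while Gja1 held 6 at 50% and Gjb6 held 5 at 56.8%. Over all RefSeq windows of this length the median was 6 CpG pairs, with quartiles of 2 and 16, and 52.4% G and C. Gjb2 therefore lay above the upper quartile of CpG pairs, and its more abundant neighbour Gjb6 near the median.

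Windows were matched for 7 of the 9 members, and not for Gjc1 and Panx2. The other 4 held 3 CpG pairs (Gjc3), 9 (Gja4), 17 (Panx1) and 33 (Gjd2). A GC box, GGGCGG on either strand, was found 2 times in Gjb2, 1 time in Gja4 and 1 time in Gjd2, and 33% of all 32536 windows held it. The letters TATAAA (in 12.3% of windows), TTGGCA (12.3%), ACAAAG (16.5%) and CAGCTG (13.1%) were in none of the 7 windows on either strand.

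Connexin transcripts of astrocytes were also set beside astrocyte markers in the other isolates. The 12 astrocyte markers stood in neuron libraries at 0.342% to 6.50% of their astrocyte mean, with a median of 1.23%. Gja1 at 1.91% and Gjb6 at 4.11% lay inside that range, and Gjb2 at 44.0% lay outside it. In microglia libraries the markers stood at 1.30% to 4.07% (median 2.53%), Gja1 at 0.801%, Gjb6 at 2.23% and Gjb2 at 6.88%.

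Among neuron libraries the 3 astrocyte connexins did not rank as the astrocyte markers did. Summed astrocyte markers were 111, 259.6, 74.6, 96.7 and 245.8 TPM in neuron libraries 1 to 5, lowest in library 3, where Gja1, Gjb6 and Gjb2 were highest. By single marker, library 3 was lowest for 4 of the 12 and highest for 1. Summed smooth muscle markers were 2523, 2424, 6024, 5057 and 4051 TPM, and library 3 was highest for all 6 of them. Summed fibroblast and meningeal markers were 133, 125, 245, 198 and 116 TPM, also highest in library 3, which was highest for 3 of the 7 markers and lowest for 1. Among those 7, Pdgfra is also on the list of oligodendrocyte precursor markers. Library 3 also had the highest arterial endothelial (1137 TPM) and pericyte (3209 TPM) sums. The sum of the 10 general endothelial markers was highest in library 5 (39865 TPM) and not in library 3 (30246 TPM). The part of vascular and meningeal cells in the neuron values of these connexins was not tested. Per 1000 TPM of the fibroblast and meningeal markers, a ratio taken up after the values were seen, Gjb2 had 43.6 to 57.6 TPM for neurons, 83.8 to 96.7 for astrocytes and 23.5 to 74.0 for microglia.

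**Figure D3:**
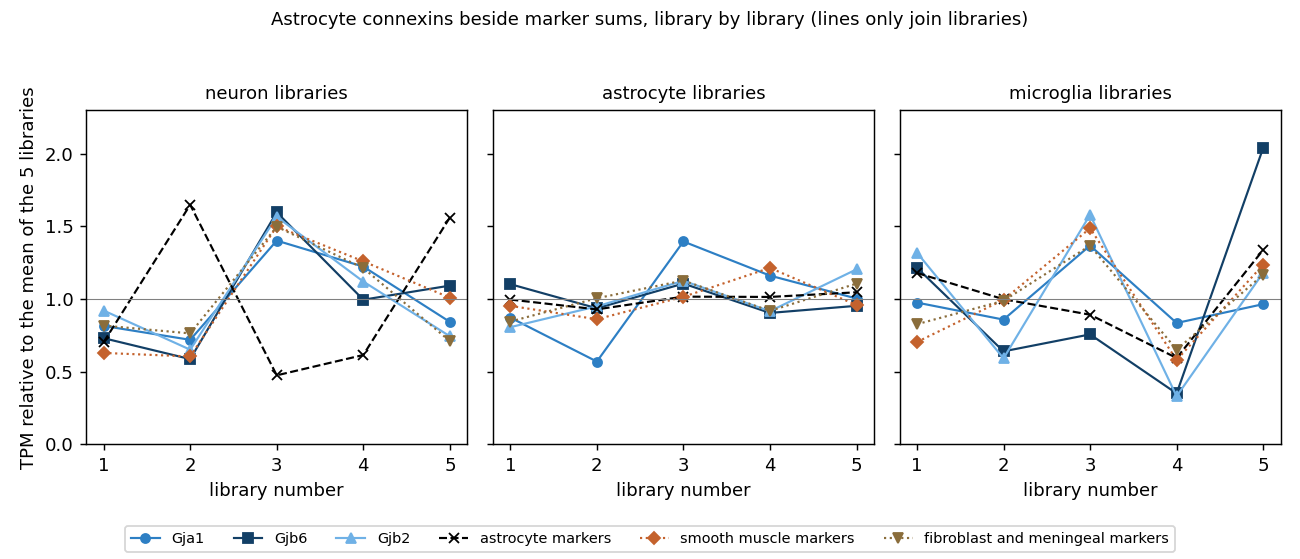
Gja1, Gjb6, Gjb2 and summed marker genes in each library, relative to the mean of the 5 libraries of that cell type (TPM ratio, no unit), for neurons, astrocytes and microglia; lines only join libraries. In neuron library 3 the 3 connexins are at 1.40 to 1.60 times their mean, while the astrocyte marker sum is lowest.

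Gja4 (chr4:127311421-127314039, minus strand), which encodes Cx37 of the vessel wall, was the member with the highest mean in neuron libraries. Neuron libraries 1 to 5 had 63.8, 81.5, 163, 130.1 and 88.9 TPM. Astrocyte libraries had 37.1, 35.8, 44.9, 34.9 and 30.8 TPM, and microglia libraries 4.09, 7.72, 8.76, 3.84 and 4.83 TPM. The cell types did not overlap, and neuron libraries 3 and 4 were the highest of all. Means were 105 ± 40.3, 36.7 ± 5.15 and 5.85 ± 2.24 TPM. Neuron libraries exceeded astrocyte libraries by a log2 of 1.43 ± 0.24 (limma adjusted p = 7.62e-05) and microglia libraries by 3.94 (limma adjusted p = 1.24e-10). Astrocyte libraries exceeded microglia libraries by 2.51 (limma adjusted p = 4.09e-08).

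Gjc1 (chr11:102799579-102819700, minus strand) encodes Cx45, which is found in smooth muscle cells and pericytes. Its neuron libraries had 68.4, 73.5, 104.5, 103.6 and 73.1 TPM. Astrocyte libraries had 29.6, 21.04, 38.8, 38.2 and 34.0 TPM, and microglia libraries 1.89, 3.36, 4.77, 2.41 and 2.39 TPM. The order was that of Gja4, without overlap, and neuron libraries 3 and 4 were again highest. Means were 84.6 ± 17.9, 32.3 ± 7.31 and 2.96 ± 1.14 TPM. The log2 difference was 1.37 ± 0.21 for neurons minus astrocytes (adjusted p = 2.32e-05), 4.45 for neurons minus microglia (adjusted p = 2.93e-12) and 3.08 for astrocytes minus microglia (adjusted p = 3.16e-10).

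Vascular markers had the same order of isolates as these 2 connexins. Neuron, astrocyte and microglia libraries had mean sums of 31537, 2335 and 544 TPM for 10 endothelial markers, 717, 163 and 75.02 for 5 arterial endothelial markers, 4016, 605 and 167 for 6 smooth muscle markers, and 2677, 2139 and 103 for 6 pericyte markers. Their part in the levels of Gja4 and Gjc1 was not tested. From astrocytes to neurons these means differed 13.5-fold for endothelial, 4.39-fold for arterial, 6.64-fold for smooth muscle and 1.25-fold for pericyte markers, beside 2.87-fold for Gja4 and 2.62-fold for Gjc1. Gjc1 per 1000 TPM of pericyte markers was 28.1 to 34.9 in neurons, 11.3 to 16.4 in astrocytes and 25.3 to 37.4 in microglia. Gja4 per 1000 TPM of smooth muscle markers was 21.9 to 33.6, 47.5 to 73.1 and 23.5 to 46.6, and per 1000 TPM of arterial endothelial markers 109.9 to 187.6, 172 to 278.5 and 52.7 to 101.1. Gjc1 per 1000 TPM of smooth muscle markers was 17.35 to 30.3, 40.4 to 63.1 and 11.6 to 24.96. The order of the isolates thus depended on the markers used.

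The proportion of Gja4 to Gjc1 was higher in microglia than in neuron libraries. Gja4 per Gjc1 was 0.933 to 1.56 in neurons and 0.906 to 1.70 in astrocytes, which overlapped, and 1.59 to 2.298 in microglia, above all neuron values. Gja5, which encodes the arterial connexin Cx40, was far lower, with means of 2.90 ± 1.06, 0.780 ± 0.230 and 0.518 ± 0.0786 TPM for neurons, astrocytes and microglia. It was called higher in neuron libraries than in astrocyte libraries (log2 1.103, limma adjusted p = 1.77e-05) and than in microglia libraries (1.32, limma adjusted p = 1.08e-06). The first difference was 0.96 without neuron library 3 and the second 0.64 under quantile normalization, neither called. That library, at 4.59 TPM, had the highest Gja5 as it had the highest Gja4.

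Gjc3 (chr5:137953461-137963098, minus strand) encodes Cx29 of myelinating cells and varied more within each cell type than the other tested connexins among the 9. Microglia libraries 1 to 5 had 66.4, 80.3, 19.6, 2.04 and 17.0 TPM. Neuron libraries had 24.5, 19.1, 4.12, 15.1 and 13.3 TPM, and astrocyte libraries 2.15, 3.20, 2.94, 6.24 and 3.59 TPM. Microglia libraries 1 and 2 stood above all other libraries, and microglia library 4 below them all, so that the cell types overlapped. Means were 37.1 ± 34.2 TPM for microglia, 15.2 ± 7.54 for neurons and 3.62 ± 1.55 for astrocytes.

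The Gjc3 calls were not stable to the libraries and settings used. Astrocytes minus microglia gave a log2 of -2.36 ± 0.66 (adjusted p = 0.00383), which became -1.23 (adjusted p = 0.0594, over alternatives 1.14e-05 to 0.193) without microglia libraries 1 and 2. Neurons minus astrocytes gave 1.69 (adjusted p = 0.0379) and lost the call when any of astrocyte libraries 1, 2, 3 and 5 or neuron libraries 1, 2, 4 and 5 was left out, with adjusted p of 0.0581 to 0.0902 and a log2 that stayed at 1.48 to 1.70. It was also lost with no filter (1.69, adjusted p = 0.0916) and under median-of-ratios scaling (1.72, adjusted p = 0.0524), over alternatives from 0.00108 to 0.222. Neurons minus microglia gave -0.67 (adjusted p = 0.376). Without microglia library 4 it was called at -1.40, and without microglia libraries 1 and 2 it was 0.46.

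Mature oligodendrocyte markers, 10 genes, moved with Gjc3 in microglia. Their sums were 69786, 52001, 6749, 252 and 8179 TPM in microglia libraries 1 to 5, with the same 2 libraries high and the same library lowest. In neuron libraries they were 8469, 10369, 212, 236 and 1638 TPM, and in astrocyte libraries 1119, 3810, 628, 445 and 1286 TPM. The part of oligodendrocyte transcripts in the Gjc3 level was not tested. Gjc3 per 1000 TPM of these markers ranged from 0.951 to 8.11 in microglia, 1.84 to 63.7 in neurons and 0.840 to 14.0 in astrocytes. The highest ratio of each cell type was that of library 4. The 8 oligodendrocyte precursor markers summed to 293 TPM in neuron library 4 and 176 TPM in astrocyte library 4, each the highest of its cell type. In microglia library 4 they summed to 12.1 TPM, the lowest of the microglia libraries.

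Gjb1, which encodes another oligodendrocyte connexin, Cx32, showed the same split of microglia libraries. It had 39.5, 62.1, 16.3, 0.23 and 7.40 TPM in microglia libraries 1 to 5. It was highest in libraries 1 and 2 and near 0 in library 4. Means for neurons and astrocytes were 2.33 ± 1.30 and 1.02 ± 0.533 TPM. Gjb1 was called lower than in microglia in neurons (log2 -2.14, limma adjusted p = 0.015) and in astrocytes (-2.79, limma adjusted p = 0.00239). With a pseudocount of 0.1 the neuron difference was -2.33 and was not called (limma adjusted p = 0.0565). Without microglia libraries 1 and 2 the neuron difference was -0.87 and was not called, while the astrocyte difference kept its call. Without all libraries numbered 1 and 2 the neuron and astrocyte differences were -1.16 and -1.50, and neither was called.

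**Figure D4:**
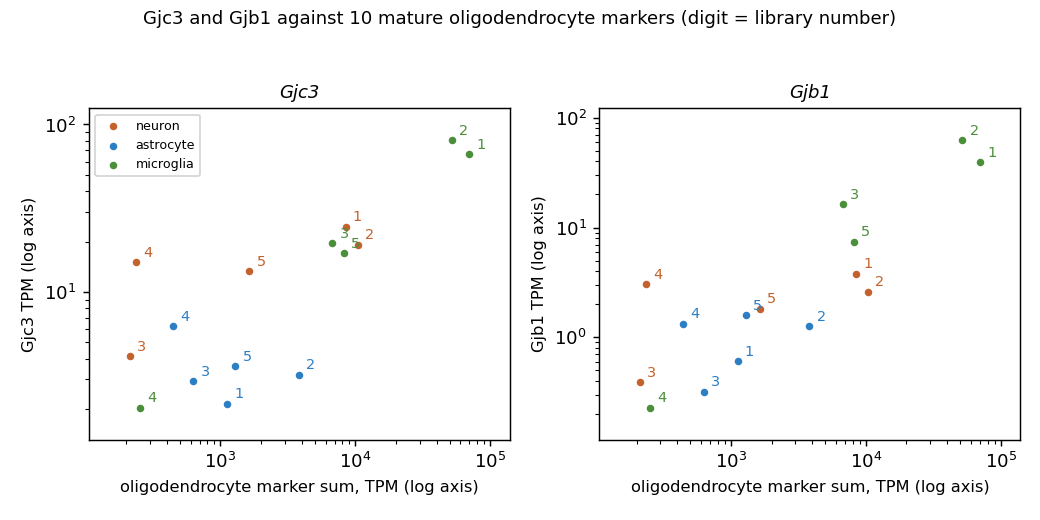
Gjc3 and Gjb1 (TPM, log axis) against the summed TPM of 10 mature oligodendrocyte markers (log axis) in 15 libraries, with digits for library numbers and colours for cell types. Microglia libraries 1 and 2 are highest on both axes of each panel, and neuron library 4 lies above the other libraries with a sum under 1000 TPM in Gjc3.

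Gjd2 (chr2:114009601-114013619, minus strand) encodes Cx36, the connexin of electrical synapses. It reached 0.10, 0, 0.11, 0.27 and 0.06 TPM in neuron libraries 1 to 5. Astrocyte libraries had 0, 0.02, 0.03, 0 and 0 TPM, and in microglia only library 5 was above 0, at 0.04 TPM. It was listed at 0 in 1 neuron, 3 astrocyte and 4 microglia libraries, and no fold is given. The 8 inhibitory neuron markers had mean sums of 226 ± 131, 26.5 ± 8.86 and 14.1 ± 10.4 TPM for neurons, astrocytes and microglia. In an alternative with no filter, neurons minus astrocytes was 0.13 (adjusted p = 0.0394), under 2-fold. Gjd2 overlaps the transcript A530058N18Rik on the other strand at 1 end only, from base 114013563 to base 114013619. Reads of that short overlap cannot be told apart where counting ignores strand.

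Panx1 (chr9:15002128-15045478, minus strand), the widely expressed pannexin that releases ATP, was the most even member across cell types. Neuron libraries 1 to 5 had 6.45, 5.73, 6.70, 7.94 and 8.23 TPM. Astrocyte libraries had 4.27, 5.03, 5.49, 4.46 and 1.65 TPM, and microglia libraries 3.01, 3.73, 3.67, 3.74 and 4.43 TPM. All neuron libraries lay above all others, and astrocytes overlapped with microglia, with astrocyte library 5 the lowest of the 15. Means were 7.01 ± 1.05, 4.18 ± 1.49 and 3.72 ± 0.503 TPM. The log2 difference was 0.68 for neurons minus astrocytes (adjusted p = 0.0106) and 0.76 for neurons minus microglia (adjusted p = 0.00378), both under 2-fold and not called. The second was 0.25 under both median-of-ratios scaling and quantile normalization, and its adjusted p ran from 0.000282 to 0.288 over alternatives. Astrocytes minus microglia was 0.08 (adjusted p = 0.748) and turned negative under both scalings (-0.47 and -0.50).

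Panx2 (chr15:89059734-89073567, plus strand), a pannexin of the nervous system, had the widest relative spread of the tested members in neurons and astrocytes, with coefficients of variation of 90.6% and 84.1%. Neuron libraries 1 to 5 had 7.17, 14.0, 1.42, 1.63 and 4.41 TPM. Astrocyte libraries had 5.82, 2.93, 1.17, 0.18 and 6.58 TPM, and microglia libraries 0.49, 0.45, 0.08, 0.04 and 0.48 TPM. Libraries 3 and 4 were lowest in each cell type. Neurons lay above microglia without overlap, and astrocytes overlapped with both. Means were 5.73 ± 5.19, 3.34 ± 2.81 and 0.308 ± 0.227 TPM.

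Panx2 was called higher in neurons than in microglia, by a log2 of 2.04 ± 0.50 (adjusted p = 0.00149). Astrocytes minus microglia gave 1.44 (adjusted p = 0.0159) and was not called without astrocyte library 5 (1.16, adjusted p = 0.0509, over alternatives 0.000299 to 0.148), nor under median-of-ratios scaling (adjusted p = 0.0641), quantile normalization (0.148) or without all libraries numbered 1 and 2 (0.086). Neurons minus astrocytes gave 0.60 (adjusted p = 0.322). Panx2 overlaps the antisense transcript 1810021B22Rik, so its reads are uncertain where counting ignores strand.

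The 6 excitatory neuron markers were also lowest in libraries 3 and 4 of each cell type. Their sums were 329.9, 375, 95.1, 89.9 and 286 TPM for neurons, 58.3, 93.5, 27.1, 43.3 and 65.2 for astrocytes, and 56.7, 59.4, 6.89, 3.36 and 55.8 in microglia. The 10 pan-neuronal markers were not lowest there in neurons, at 1023, 872, 1197, 1009 and 1728 TPM. In astrocytes they were lowest there, at 208, 320, 152, 182 and 245 TPM, and in microglia too, at 119, 138, 30.2, 20.8 and 100 TPM. The 10 mature oligodendrocyte markers were lowest in libraries 3 and 4 of each cell type as well. In those libraries they summed to 212 and 236 TPM for neurons, 628 and 445 for astrocytes, and 6749 and 252 for microglia. The part of excitatory neuron, other neuronal or oligodendrocyte transcripts in the Panx2 level was not tested. Panx2 per 1000 TPM of excitatory markers was 14.9 to 37.4 in neurons, 4.16 to 100.9 in astrocytes and 7.57 to 11.9 in microglia.

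**Figure D5:**
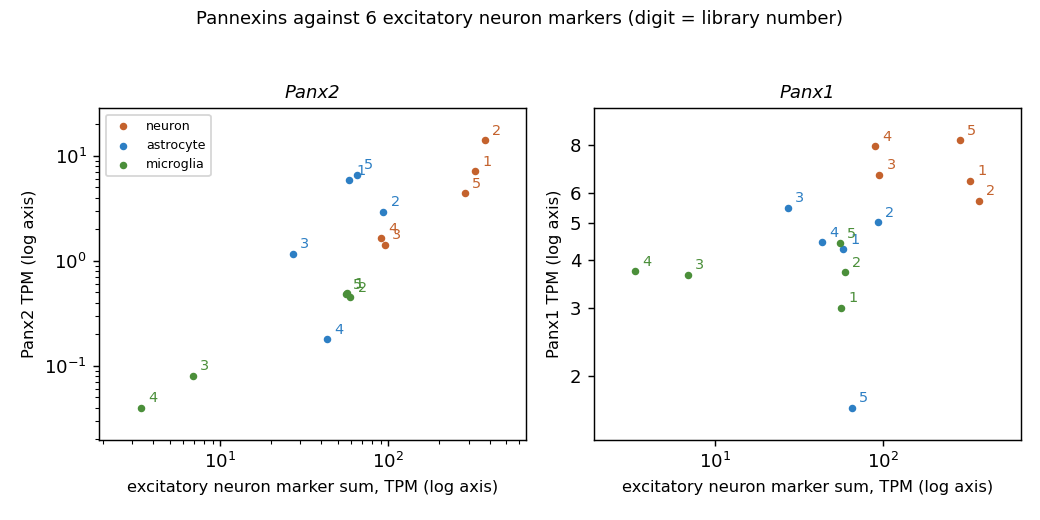
Panx2 and Panx1 (TPM, log axes) against the summed TPM of 6 excitatory neuron markers (log axis) in 15 libraries, with digits for library numbers and colours for cell types. Panx2 is lowest in libraries 3 and 4 of each cell type, while Panx1 stays between 1.65 and 8.23 TPM.

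Within a cell type the members were ordered on the TPM scale, and neighbours in that order often overlapped. Astrocytes had Gja1 and Gjb6 on top, which overlapped, then Gja4, Gjc1 and Gjb2, then Panx1, Gjc3 and Panx2, and last Gjd2. The 9 genes summed to 2777 ± 551 TPM in astrocytes, of which Gja1 made up 56.4% and Gjb6 39.9%. Neuron libraries summed to 301 ± 73.7 TPM, led by Gja4 (34.1%) and Gjc1 (28.3%), and each gene's range overlapped with that of the next down to Panx2. Microglia libraries summed to 88.1 ± 37.3 TPM, led by Gjc3 (34.5%) and Gjb6 (28.3%), whose ranges overlapped with each other and with Gja1.

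The families hold 14 further genes, all in the table, of which 3 passed the filter, Gja5 and Gjb1 among them. Those that did not pass included Panx3, listed at 0 in all neuron and microglia libraries. Among 14 symbols listed for proteins that anchor, traffic or degrade connexins, 13 were in the table and 12 were tested. Tjp1, which encodes the scaffold ZO-1, Cav1, a caveolar coat gene of endothelium, and Ccn3 were called higher in neuron than in astrocyte libraries. None was called lower, so that 3 of 12 were called where 25.6% of all tested genes were. Tjp1 had a mean of 35.3 ± 4.43 TPM for neurons, 14.4 ± 3.95 for astrocytes and 7.56 ± 2.16 for microglia. Cav1 had 218 ± 31.3, 36.6 ± 10.5 and 9.51 ± 2.98 TPM in the same order. Against microglia 6 of the 12 were called higher in neurons, among them Tjp1, Dbn1, Cav1, Nedd4 and Ccn3, and 5 higher in astrocytes, among them Dbn1, Cav1, Src and Nedd4, and none lower, where 29.5% and 32.3% of all tested genes were called.

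Channels of other families with large pores were set beside the pannexins. Of 14 CALHM and LRRC8 symbols 11 were in the table and 7 were tested. Between neurons and astrocytes limma called 0 of the 7, where 25.6% of all tested genes were called. Of the 7, 3 had an adjusted p below 0.05 but were under 2-fold. Lrrc8a, the obligatory subunit of volume-regulated anion channels, had means of 15.5 ± 2.67, 14.6 ± 1.93 and 10.2 ± 2.13 TPM for neurons, astrocytes and microglia. Its log2 difference from microglia was 0.56 for neurons (limma adjusted p = 0.00491) and 0.49 for astrocytes (adjusted p = 0.0116), both under 2-fold and not called. Calhm2 and Calhm6 were called higher in microglia than in both others, where they had 14.9 ± 4.34 and 11.9 ± 3.01 TPM. Calhm5 and Lrrc8c were called higher in neurons and in astrocytes than in microglia, and Lrrc8b in neurons, so that 5 of the 7 were called between neurons and microglia (39.3% of all tested genes) and 4 between astrocytes and microglia (42.5%).

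The last list, 8 genes of ATP signalling and pannexin channel control, was tested whole. Between neurons and astrocytes limma called 0 of the 8, beside the same 25.6%. Of the 8, 4 had an unadjusted p below 0.05 and 3 of them an adjusted p below 0.05, all under 2-fold. P2rx7, an ATP-gated channel that has been linked to Panx1, averaged 52.0 ± 9.85 TPM for microglia, 3.61 ± 0.787 for neurons and 7.04 ± 1.96 for astrocytes. P2rx7, P2ry12 and P2ry13 were called higher in microglia than in both others, P2rx4 higher than in neurons, and P2ry1 lower than in both, so that 5 of the 8 were called between neurons and microglia and 4 between astrocytes and microglia, beside the same 39.3% and 42.5%.

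The genes closest to each member were found from log2(TPM + 1) profiles over 15 libraries, each centred on its own mean. The measure of likeness was the root-mean-square difference, and it describes these libraries only. Htra1 (0.33), F3 (0.38) and Kcnk1 (0.45) were closest to Gja1, and Cpe (0.42), Ntrk2 (0.44) and Clu (0.47) to Gjb6. Slc35g2 (0.26), Amigo2 (0.30) and Fam180a (0.30) were closest to Gjb2. Gja4 had Pir (0.24), Gstm2 (0.24) and Cald1 (0.26), and Gjc1 had Ppic (0.20), Apcdd1 (0.22) and Pir (0.24). Gjc3 had Enpp6 (0.42), Ugt8a (0.44) and Bfsp2 (0.51), and Panx2 had Camk2n2 (0.51), Cpne9 (0.52) and Myh7 (0.52), less close than for the vascular members.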

How the data were processed

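The values are TPM per gene in 15 libraries, as deposited by the authors, each column summing to 1000000 within rounding, so read depth is unknown here. Per the submitters' processing notes, the genome was mm10 and the tools were DESeq2 1.36.0, RSEM 1.2.28, STAR 2.7.1a and Trim Galore 0.6.4, named without order or role. The annotation and strand setting are not given in the sources used here. Samples were grouped by the cell type in the labels. log2(TPM + 1) values, with a pseudocount of 1, of the 13351 genes that reached 1 TPM in 5 or more libraries were fitted in limma 3.58.1 (R 4.3.3), with 1 mean per cell type and a variance trend, and Benjamini-Hochberg adjustment ran over all of them. Fits were tested on simulated data. Sums, ratios and figures used Python 3.11.15, numpy 2.4.6, pandas 2.3.3 and matplotlib 3.10.9. Coordinates are from GENCODE vM21 and promoter windows from RefSeq (GRCm38.p6).

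Results for some list genes are counted with their list and not reported singly here. The members and lists were chosen with earlier results of these data known. Named genes are all 9 members, list genes that were called or above 1 TPM, and the 3 genes closest to each member called at least once. Libraries share replicate numbers between cell types. Deviations from group means were correlated between libraries of the same number. The correlations were 0.216 to 0.382 between neurons and microglia, -0.0329 to 0.233 between neurons and astrocytes and -0.0110 to 0.249 between astrocytes and microglia. Libraries of different numbers were not correlated, so these values cannot show whether the numbers pair libraries, and no label pairs them. The 26 alternatives took in no filter, a pseudocount of 0.1, quantile normalization, median-of-ratios scaling, a filter of 5 TPM, fits of 2 cell types, no variance trend, a replicate block, each library left out, and libraries left out in sets.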

Additional observations from a re-analysis of the deposited data

Results flagged for a closer look

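The groups of 5 libraries, for 9 members in each of 3 cell types, were put to Dixon's gap test. That test flags about 1 in 20 groups by chance, and 2 member values stood apart from the rest of their group. Gja1 in microglia library 3 was at 17.5 TPM, and its gap to the next library took up 0.736 of the range of the group, against a critical share of 0.71. Gjd2 in microglia library 5 was at 0.04 TPM with the other 4 libraries listed at 0. The gap was therefore the whole range of that group.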

How the results depend on the processing

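Over 26 alternatives the number of members called stayed at 5 to 6 between neurons and astrocytes, 4 to 6 between neurons and microglia and 5 to 7 between astrocytes and microglia. With the replicate block it was 6, 6 and 7, and the block changed no member's call. Of 621 alternative values of member differences, 583 kept their direction and their side of the thresholds, 29 lost a call, 2 gained one and 7 changed sign. The sign changes were those of Gjc3 for neurons minus microglia (0.46 without microglia libraries 1 and 2, and 0.02 without all libraries numbered 1 and 2) and Panx1 for astrocytes minus microglia (-0.47 with median-of-ratios scaling, -0.50 with quantile normalization, -0.02 to 0.30 when 1 library was left out, negative without astrocyte library 3 alone, -0.12 without libraries numbered 1 and 2, and -0.10 without those numbered 3 and 4); the cause was not tested. Of 976 alternative values of list genes that were called, 26 lost the call and none changed sign; among the genes concerned were Gja5, Gjb1, Src, Lrrc8b, Calhm5 and P2ry1. Panx2 was below the filter of 5 TPM and has no value there.

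Scaling moved the balance of calls over all genes. Of the genes called between neurons and microglia 75.2% were higher in neurons, against 55.8% with median-of-ratios scaling and 55.6% with quantile normalization. Between astrocytes and microglia 76.0% were higher in astrocytes, against 53.4% and 54.7%. Median-of-ratios scaling moved the median of all tested genes from 0.481 to -0.024 and from 0.567 to 0.025, and Gjb6 for neurons minus microglia from 1.003 to 0.41. Without all libraries numbered 3 and 4, that Gjb6 difference was 0.28 and the Gja1 difference 0.96, and neither was called.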
